A study of Homo sapiens with 4 samples.

Results

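Genes that hold back apoptosis were examined in Panc1 cells, an established human pancreatic cancer cell line, across 4 arrays with 1 array per condition. The genes were BCL2, BCL2L1, BCL2L2, BCL2A1, MCL1, CFLAR, XIAP, BIRC2 and BIRC3, chosen by name, and every probe set that the platform annotation gives to 1 of them alone was used. Of the 9 genes 8 had such a probe set, 39 probe sets in all, out of 19775 genes and 41097 probe sets with 1 gene on the array. BIRC3 was not named alone by any probe set of the annotation used and was not analysed here. The conditions were untreated cells, cells given romidepsin, an inhibitor of histone deacetylases, cells given tamoxifen, a selective estrogen receptor modulator, and cells given both drugs together. Treatment lasted 24 hours, the labels state no dose, and all cells grew in RPMI1640 with serum. A culture on an array cannot tell fewer cells with a transcript from less transcript per cell.

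Apoptosis is held back at 2 levels by these genes. BCL2, BCL2L1 (BCL-XL), BCL2L2 (BCL-W), BCL2A1 (BFL-1) and MCL1 bind BH3-only proteins and the pore formers BAX and BAK at the mitochondrial outer membrane, and so prevent the release of cytochrome c. CFLAR encodes FLIP, which resembles caspase-8 and blocks its activation at death receptors. XIAP binds and inhibits active caspases, and BIRC2 (cIAP1) and BIRC3 (cIAP2) are ubiquitin ligases of the TNF receptor complex that favour survival signalling through NF-kappaB. Many pancreatic cancers carry high BCL-XL and MCL1.

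The upstream sequences of 3 genes that fell together on the romidepsin arrays, and of BIRC2, which did not, are shown to compare their base composition and short motifs. Each is the 250 bases before a RefSeq gene start (GRCh38.p14), 5′ to 3′ in the direction of the gene. Capitals mark matches on either strand to the AP-1 motif TGANTCA, the NF-kappaB motif GGGNNTTCC, the GC box GGGCGG, the CRE TGACGTCA or the TATA box TATAAA. Each motif was searched in this spelling only, so sites with other letters or lengths are not marked or counted.
BCL2A1, chr15:79971197-79971446, minus strand: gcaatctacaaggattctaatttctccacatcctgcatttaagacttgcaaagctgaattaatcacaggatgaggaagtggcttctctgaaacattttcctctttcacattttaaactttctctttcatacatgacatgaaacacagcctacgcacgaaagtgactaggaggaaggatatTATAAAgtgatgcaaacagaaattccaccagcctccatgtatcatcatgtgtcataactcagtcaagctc
BCL2L1 outer start, chr20:31723964-31724213, minus strand: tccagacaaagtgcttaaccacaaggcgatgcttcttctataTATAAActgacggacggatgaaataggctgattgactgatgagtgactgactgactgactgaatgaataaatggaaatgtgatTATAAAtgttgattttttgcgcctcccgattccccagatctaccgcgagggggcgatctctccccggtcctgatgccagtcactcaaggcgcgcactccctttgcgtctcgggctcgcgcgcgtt
BCL2L1 inner start, chr20:31722869-31723118, minus strand: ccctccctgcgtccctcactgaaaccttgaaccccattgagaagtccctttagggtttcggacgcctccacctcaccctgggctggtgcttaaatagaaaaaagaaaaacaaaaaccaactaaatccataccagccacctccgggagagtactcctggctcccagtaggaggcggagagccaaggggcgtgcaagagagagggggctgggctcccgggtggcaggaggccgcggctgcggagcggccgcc
CFLAR, chr2:201118466-201118715, plus strand: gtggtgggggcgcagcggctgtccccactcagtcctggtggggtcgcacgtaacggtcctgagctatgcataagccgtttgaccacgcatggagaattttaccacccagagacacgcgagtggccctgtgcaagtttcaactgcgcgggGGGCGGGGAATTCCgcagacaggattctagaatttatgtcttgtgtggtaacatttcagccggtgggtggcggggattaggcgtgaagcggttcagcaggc
BIRC2, chr11:102347124-102347373, plus strand: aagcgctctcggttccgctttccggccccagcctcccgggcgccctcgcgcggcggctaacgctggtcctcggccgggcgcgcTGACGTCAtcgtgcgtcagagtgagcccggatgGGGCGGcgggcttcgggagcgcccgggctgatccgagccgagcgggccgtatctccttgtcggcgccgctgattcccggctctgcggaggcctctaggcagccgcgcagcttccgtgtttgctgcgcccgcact

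The sequence before BCL2A1 was poor in CpG, with 2 CpG dinucleotides and 38.8% G and C, against a median of 11 CpG and 58.0% over 35116 RefSeq promoter windows of the same length. It held 1 TATAAA, 70 bases before the start, a motif found in 10.7% of those windows. The BCL2L1 windows had 17 and 12 CpG, the CFLAR window shown had 17, and the BIRC2 window shown had 38. The CFLAR window held an NF-kappaB match 96 bases before the start that overlaps a GC box, where 5.78% of all windows hold the first motif and 42.6% the second. CFLAR has 4 start sites in the table and BIRC2 2, and only 1 of each is shown. The other 3 CFLAR windows held 0, 0 and 22 CpG and no NF-kappaB match, so the window shown is the 1 of 4 that has one. The other BIRC2 window held 33 CpG. BCL2 and XIAP, not shown, were not called with romidepsin either. The BCL2 window held 24 CpG and the 3 XIAP windows 4, 12 and 23, so CpG numbers overlap between genes that fell and genes that did not. None of the 5 motifs was found in the windows of all 3 genes that fell, which says only that these letters are not common to them there.

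Signals are in MAS5 units, and values under the median of all signals, 66.4, were set to that floor. Signals below it were therefore not ranked, a choice that was not tested by detection calls. The words rise and fall are kept for genes whose brightest probe set differed at least 2-fold between 2 arrays, and a gene counts as measured where at least 1 of the 2 lay above the floor. With 1 array per condition there is no test and no p-value, and folds describe these arrays. Only a part of the technical spread could be measured. Log2 folds of 1 probe set had an SD between 0.22 and 0.30 in the 5 comparisons, called the technical SD. It is a robust estimate, from the median absolute difference between the 2 brightest probe sets of 5221 genes, both above the floor on all arrays. Errors that both probe sets share, from labelling, hybridisation or culture, are not in it. Keratins KRT8 and KRT18 were bright on all 4 arrays (4153 to 25361), and so was the mesenchymal marker VIM (22486 to 38695). KRT19 lay under the floor on all 4 (2.38 to 7.52), EPCAM on the untreated array, and 4 of 4 named leukocyte markers throughout. Only probe sets given to KRT19 alone were read, and whether they detect its transcript was not tested. Of the endothelial markers PECAM1 lay above the floor on all 4 (110 to 136). VWF lay above it with romidepsin and the combination (98.3 and 73.6), and CDH5 lay under it throughout. The 3′ to 5′ ratio of the actin control, which reads RNA integrity, was 1.73 on the combination array and 1.18 to 1.39 on the others. That of the GAPDH control was 1.07 on the combination and untreated arrays, 1.03 with romidepsin and 1.04 with tamoxifen. Centring arrays on their medians moved the median log2 fold of all genes from 0.06 to -0.11 for romidepsin, from 0.01 to -0.13 for tamoxifen and from 0.09 to -0.17 for the combination, each against untreated cells. Scaling to spike-in controls moved the last 2 to 0.33 and 0.34. Rises made up 60.7%, 77.5% and 57.9% of all calls in these comparisons as deposited, 47.4%, 48.0% and 41.2% with centred arrays, and 58.8%, 98.3% and 72.8% with the spike-ins. For the combination against romidepsin they were 64.2% as deposited, 46.4% centred and 93.7% with the spike-ins.

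Romidepsin alone was compared with no treatment. BCL2A1, CFLAR and BCL2L1 fell, none of the 8 genes rose, and MCL1, BCL2 and BIRC2 had log2 folds of 0.11, 0.17 and -0.17, smaller than the technical SD of 0.25. The 3 falls of 8 genes stand against 9.27% of 13619 measured genes that fell and 14.3% that rose. The median log2 fold of the 8 was -0.93, against 0.06 over all measured genes.

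**Figure D1:**
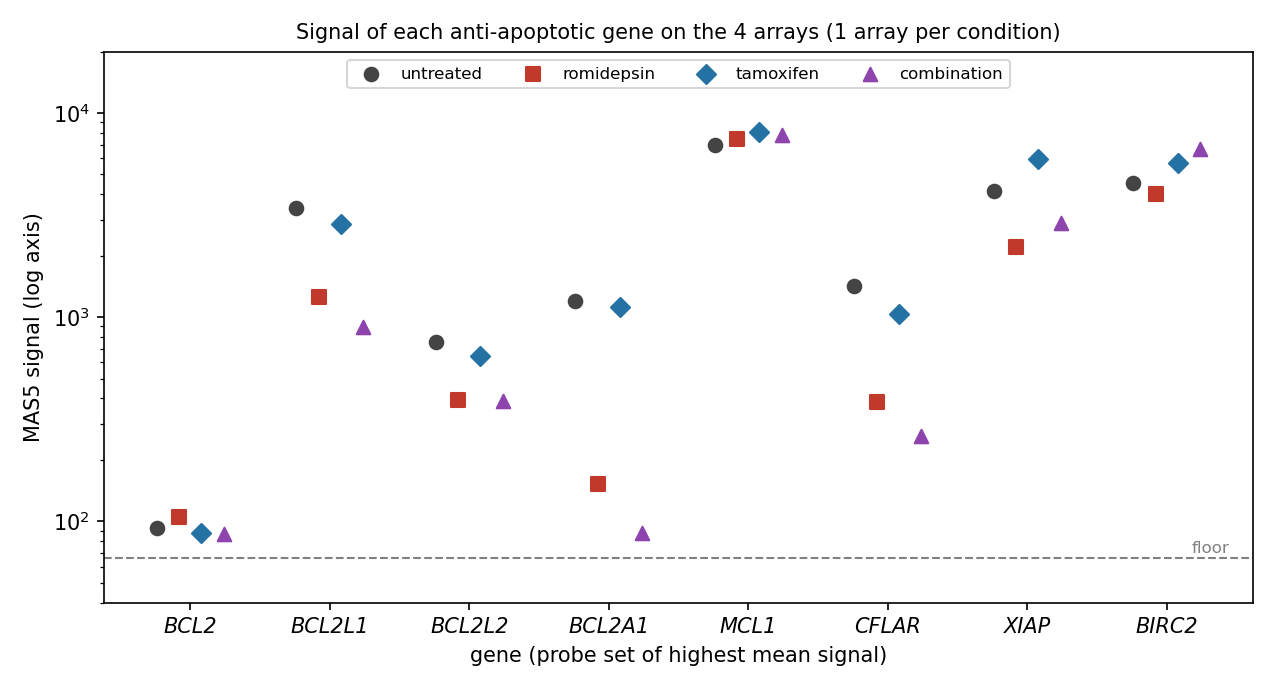
MAS5 signal (log axis) of the brightest probe set of each of the 8 genes on the 4 arrays, 1 point per array, with the floor of 66.4 dashed. BCL2A1, CFLAR and BCL2L1 sit low on the romidepsin and combination arrays, while MCL1 lies between 6953 and 8112 on all 4.

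BCL2A1, a BCL2 relative known as an NF-kappaB target in blood cells, had signals of 1197 in untreated cells, 152 with romidepsin, 1121 with tamoxifen and 87.8 with the combination. The 2 arrays without romidepsin were high and the 2 arrays with it low. The fold was 7.87 lower with romidepsin and 13.6 lower with the combination, both against untreated cells, and these rest on 1 probe set. In the combination the signal was 1.32 times the floor, so that further loss could hardly be seen. Between romidepsin and the combination the log2 difference was -0.79, under the 2-fold limit.

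BCL2L1 encodes BCL-XL in its long splice form and the death-promoting BCL-XS in its short one, which these probe sets were not shown to separate. Its brightest probe set read 3435 in untreated cells, 1259 with romidepsin, 2844 with tamoxifen and 892 with the combination. The fold was 2.73 lower with romidepsin and 3.85 lower with the combination. All 4 BCL2L1 probe sets were lower with romidepsin, 3 of them at least 2-fold, with log2 folds from -1.71 to -0.88. In the combination all 4 fell at least 2-fold, from -2.94 to -1.94, and the 4 stayed lower than untreated in both comparisons under each of the 3 other scalings.

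The probe sets of BCL2L1 did not give 1 size for tamoxifen. The brightest differed by -0.27 on the log2 scale from untreated cells, and the dimmest went from 644 to 300, 2.15-fold lower, although under 2-fold with spike-in scaling. All 4 were lower with tamoxifen as deposited, centred or quantile normalised, and 3 of 4 when arrays were scaled to spike-ins. Adding tamoxifen to romidepsin gave log2 differences from -1.35 to -0.50, with 2 of the 4 probe sets at least 2-fold lower, or 1 of 4 when scaled to spike-ins. The median of the 4 differences was -0.94 and the brightest probe set gave -0.50, so the gene was not called, while the median signal of the 4 probe sets, taken on each array, differed by -1.05.

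BCL2L2, which encodes BCL-W, had signals of 759.7 in untreated cells, 394 with romidepsin, 646 with tamoxifen and 387 with the combination. Both arrays with romidepsin were lower than both without it, but the log2 folds of -0.95 and -0.97 stopped just short of the 2-fold limit. They passed it with quantile normalisation and with centred arrays. A second probe set, near the floor, read between 50.03 and 83.4 and showed no such split.

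MCL1, a short-lived protein on which many tumours depend, read 6953 in untreated cells, 7489.8 with romidepsin, 8112 with tamoxifen and 7793 with the combination. The 4 values lie within a factor of 1.17 of each other. None of 6 probe sets rose or fell in any of the 5 comparisons, and their log2 folds lay between -0.60 and 0.70. BCL2 itself was close to the floor, at 92.9, 105, 88.1 and 86.3 in the same order, and 1 of its 4 probe sets lay above the floor on all arrays. Loss of so dim a transcript could not have been seen.

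CFLAR read 1427 in untreated cells, 384 with romidepsin, 1038 with tamoxifen and 261 with the combination. The folds were 3.71 lower with romidepsin and 5.47 lower with the combination, again with the 2 romidepsin arrays low and the other 2 high. Of its 14 probe sets 11 were measured. All 11 were lower with romidepsin, 7 of them at least 2-fold, and all 11 with the combination, 9 of them at least 2-fold. All 11 were lower in both comparisons under each other scaling too, but with the spike-ins 5 and not 9 were at least 2-fold lower in the combination. The second brightest went from 1702 to 317 with romidepsin and 186 with the combination, 9.17-fold lower. Of the 11 measured probe sets 10 carry suffixes (_x_at, _s_at) that mark possible matches to several transcripts. The other lay at 76.9 in untreated cells, only 1.16 times the floor, and at 17.5 with romidepsin, so that no 2-fold fall could be called from it. Long and short FLIP were not told apart.

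**Figure D2:**
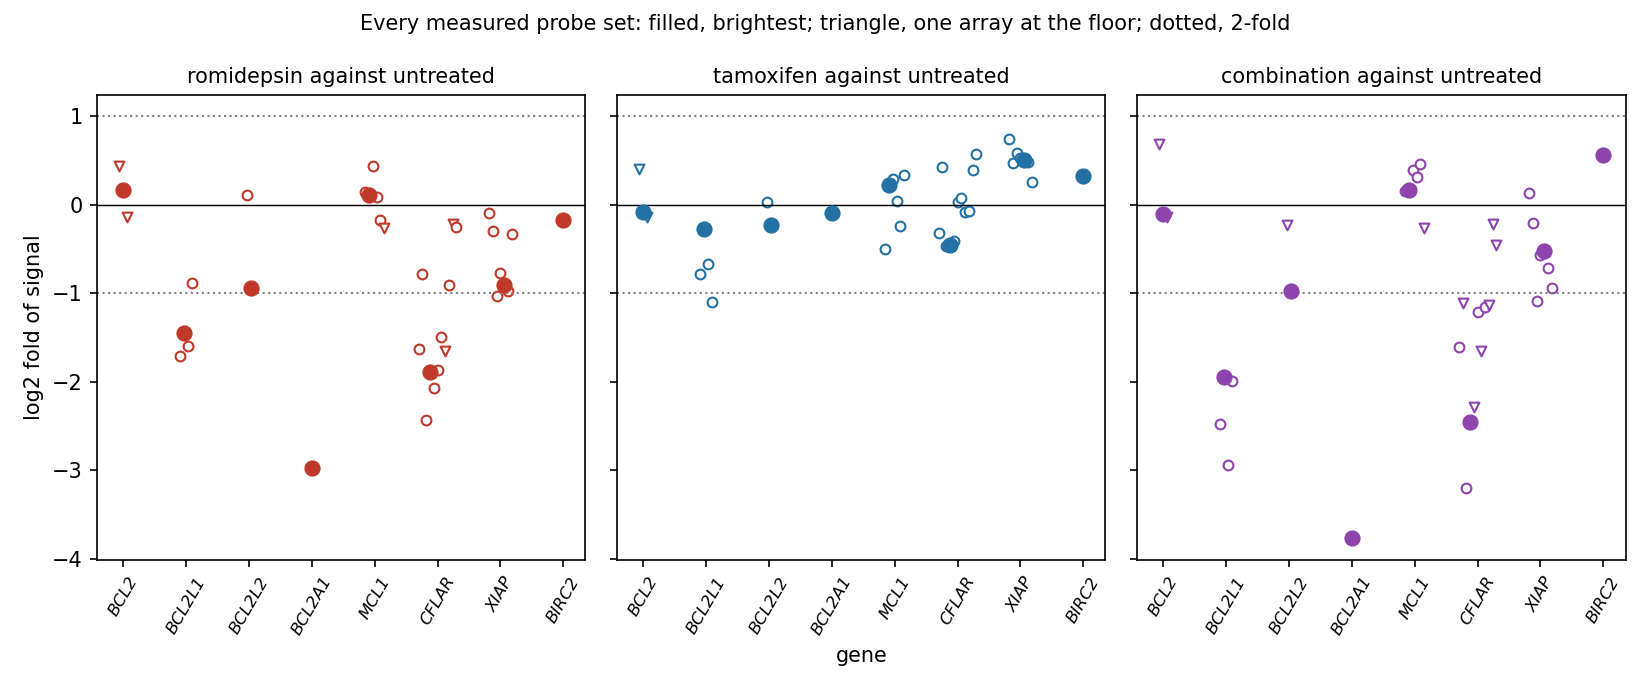
Log2 fold of every measured probe set of the 8 genes, against untreated cells, for romidepsin, tamoxifen and the combination; filled points are the brightest probe set, triangles have 1 array at the floor, and dotted lines mark 2-fold. BCL2L1 and CFLAR lie below 0 in the panels for romidepsin and the combination with all their probe sets, and XIAP lies above 0 for tamoxifen with all 7.

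XIAP, the caspase inhibitor, was lower with romidepsin and higher with tamoxifen. It read 4166 in untreated cells, 2216 with romidepsin, 5931 with tamoxifen and 2900.3 with the combination. The romidepsin array was lowest and the tamoxifen array highest, with log2 folds of -0.91 and 0.51 against untreated cells, both under the 2-fold limit and above the technical SD. All 7 probe sets were lower with romidepsin, from -1.03 to -0.10, and all 7 were higher with tamoxifen, from 0.25 to 0.75. Each of these directions held for all 7 probe sets under the 3 other scalings. The combination lay 2.05-fold below tamoxifen alone, the only one of 5 comparisons in which XIAP was called, and 5 of its 7 probe sets passed 2-fold there. Probe sets of 1 gene read the same RNA and are no replicates.

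BIRC2, which encodes the ubiquitin ligase cIAP1, was read by 1 probe set at 4549 in untreated cells, 4031 with romidepsin, 5701 with tamoxifen and 6691 with the combination. The 2 arrays with tamoxifen were the higher ones. The largest of its 5 log2 differences was 0.73, between the combination and romidepsin alone, under the 2-fold limit as deposited and 1.04 when scaled to the spike-ins.

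Tamoxifen alone left all 8 genes within 2-fold of untreated cells, where 3.7% of 13051 measured genes rose and 1.07% fell. Their log2 folds ran from -0.46 for CFLAR to 0.51 for XIAP, with a median of -0.09 against 0.01 over all genes. BCL2A1 and BCL2 differed from untreated by less than the technical SD of 0.23, and MCL1 and BCL2L2 were at that size. CFLAR pointed both ways, with 5 of 11 probe sets higher and 6 lower.

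In the combination BCL2A1, CFLAR and BCL2L1 fell and none of the 8 rose, against untreated cells. Over all 13802 measured genes 14.4% fell and 19.8% rose. The median of the 8 was -0.75, against 0.09 over all genes. The combination array had the lowest signal of all 4 for 5 of the 8 genes, where 27.1% of 14414 measured genes were lowest there. Its actin ratio was the highest of the 4, while its GAPDH ratio was not. For BCL2 and BCL2L2 the gap to the next array (88.1 against 86.3 and 394 against 387) was smaller than the technical SD, and the part of RNA integrity was not tested. Counted by probe set, 12 of 35 measured fell with romidepsin, 1 of 35 with tamoxifen and 15 of 35 with the combination, each against untreated cells. The shares over all measured probe sets with 1 gene were 8.51%, 1.27% and 13.1%. Against romidepsin 2 of 32 fell in the combination, where 2.19% of all did, and against tamoxifen 19 of 34, where 11% did. CFLAR alone holds 14 of the 39 probe sets, so these counts lean on it.

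Adding tamoxifen to romidepsin changed none of the 8 genes 2-fold, where 4.07% of 13726 genes rose and 2.27% fell. Adding romidepsin to tamoxifen gave falls of BCL2A1 (12.8-fold lower), CFLAR (3.98-fold), BCL2L1 (3.19-fold) and XIAP (2.05-fold), and no rise. Among 13893 genes 11.8% fell and 14.8% rose in that comparison. The 5 comparisons share arrays, so their folds are set side by side and not counted as separate evidence.

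Each drug's log2 difference for a gene was set beside its difference in the presence of the other drug. Romidepsin moved BCL2A1 by -2.98 alone and -3.67 on top of tamoxifen, CFLAR by -1.89 and -1.99, BCL2L1 by -1.45 and -1.67, and XIAP by -0.91 and -1.03. The departure of the combination from the sum of both drugs ranged from -0.70 for BCL2A1 to 0.41 for BIRC2. All 8 lay inside the central 95% of 11058 genes above the floor on all arrays, which ran from -0.97 to 0.76. A departure from 4 single arrays holds noise as well as any interaction. Single probe sets gave departures from -0.33 to 0.88 for MCL1, from -0.30 to 0.62 for CFLAR, from -0.67 to 0.02 for BCL2L1 and from -0.85 to -0.12 for XIAP. With the floor at the 75th percentile the departure of BCL2A1 went from -0.70 to 0.10 and that of CFLAR from -0.10 to 0.46, and on the median of probe sets that of MCL1 went from -0.16 to 0.41, so no direction is read from them.

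**Figure D3:**
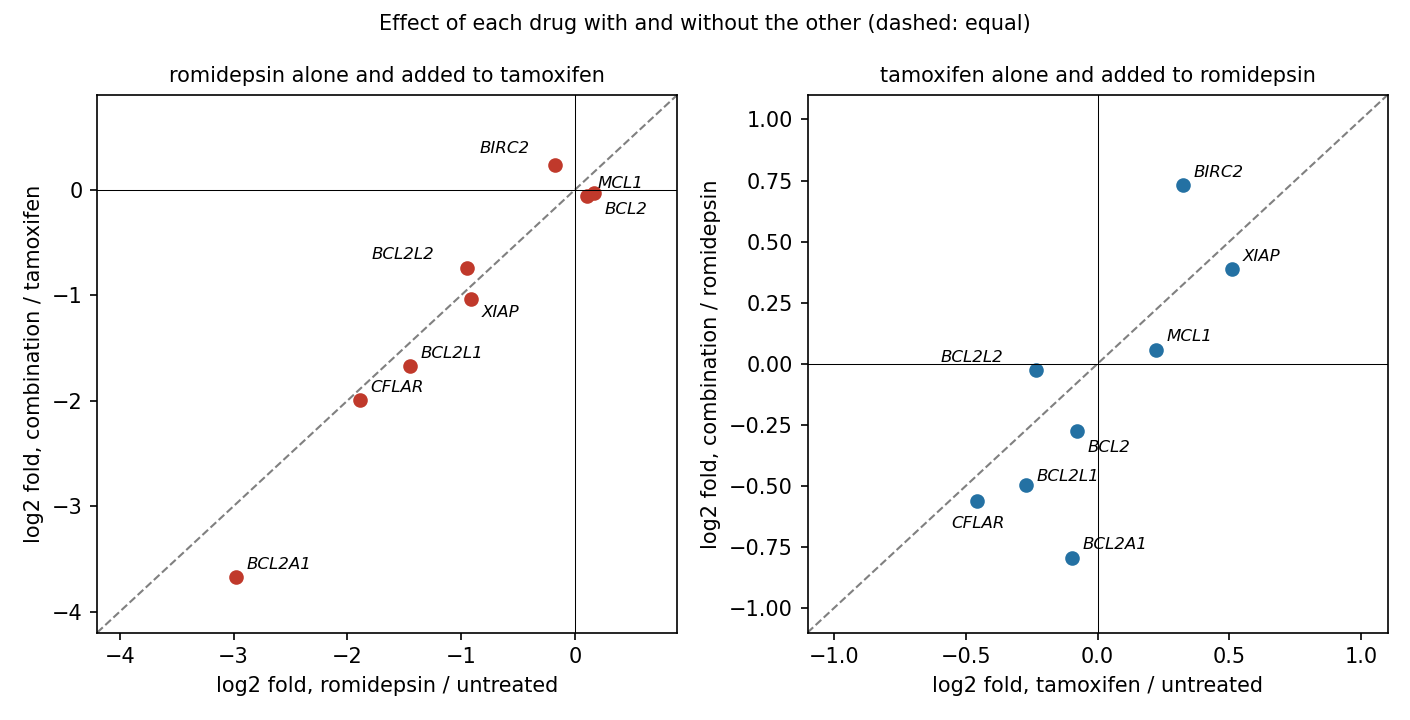
Log2 fold of each of the 8 genes for 1 drug alone (x) and for the same drug on top of the other (y), romidepsin on the left and tamoxifen on the right, with a dashed line where both are equal. BCL2A1 lies farthest from 0 on the left, at -2.98 and -3.67, and XIAP and BIRC2 lie highest on the right; the 2 axes of a panel use all 4 arrays once.

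Genes with the most similar pattern were sought among 11050 others above the floor on all arrays, by the Euclidean distance between the 3 log2 folds against untreated cells. Nearest to BCL2L1 was NFKB1, the p105/p50 subunit of NF-kappaB, at a distance of 0.03, followed by SH3RF2 (0.05) and SRSF8 (0.10). NFKB1 read 964 in untreated cells, 350 with romidepsin, 806 with tamoxifen and 246 with the combination. Nearest to CFLAR were RIN3 (0.06), the DNA sensor gene CGAS (0.09) and RUSC2 (0.11). Nearest to BCL2A1 were the chromatin protein gene HMGA2 (0.12), MXRA8 (0.16) and HOXC6 (0.30). Within 0.25, about the technical SD, lay 49 genes for BCL2L1, 16 for CFLAR and 2 for BCL2A1, so the order among the first 2 sets carries little.

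The partners of these proteins were read from lists of named genes. The calls below stand against 14.3% of all measured genes that rose and 9.27% that fell with romidepsin, and 19.8% and 14.4% with the combination. Over 8 settings that keep the 2-fold limit, 10 of 34 calls of list genes held under each. They were those of BID, BIRC5, NFKB1 and USP13 in both comparisons, BIK with romidepsin and TRAF3 with the combination. A call also counted as not held where no measured probe set was left. This was so for BMF with the floor at the 75th percentile. It was also so for BOK, ICAM1, TNFAIP3 and IER3 without _x_at and _s_at probe sets. The calls of these genes held in the other settings. Of the BH3-only proteins, which the BCL2 family holds in check, 3 of 7 measured rose and 1 fell with romidepsin, and again 3 and 1 of 7 with the combination, with median log2 folds of 0.33 and 0.36. BIM (BCL2L11), which binds all guardians, had signals of 516, 1073, 479.6 and 1698 in untreated, romidepsin, tamoxifen and combination cells, 2.08-fold and 3.29-fold higher with romidepsin and the combination on its brightest probe set. On the median of its probe sets BIM was not called in either (log2 folds of 0.30 and 0.36), and the romidepsin call also ended with centred or quantile normalised arrays. BIK rose at least 13.0-fold with romidepsin and at least 7.59-fold with the combination, from below the floor, the second not called with the floor at the 75th percentile. BMF rose at least 3.10-fold and at least 4.53-fold in the same comparisons, and at least 2.67-fold with tamoxifen, but lay under that higher floor throughout. BID, which links caspase-8 to mitochondria, went from 2233 to 733 with romidepsin and 341 with the combination, 3.05-fold and 6.55-fold lower. PMAIP1 (NOXA), the partner of MCL1, named after its values were seen, read 1430 untreated, 1503 with romidepsin, 2273 with tamoxifen and 1263 with the combination.

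Of the 3 pore formers none was called with romidepsin, and 1, BOK, fell with the combination (3.42-fold lower), on a probe set that may match several transcripts. BAK1 read 895 untreated, 1616 with romidepsin, 700.6 with tamoxifen and 808 with the combination, and BAX 589, 427, 646 and 311 in that order. Of 4 other IAP genes BIRC5 and BIRC7 fell with romidepsin, the second not when scaled to spike-ins or with the higher floor. BIRC5, which encodes survivin and is expressed in mitosis, was the only one of the 4 to fall in the combination, from 10418 to 1033, 10.1-fold lower. BIRC6, the giant IAP, read 1933, 2009, 2622 and 3165 in untreated, romidepsin, tamoxifen and combination cells. The IAP antagonists DIABLO and HTRA2 were within 2-fold in both comparisons, and XAF1 was under the floor.

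Among 4 measured caspases none was called with romidepsin, while with the combination the initiator CASP8 fell 2.07-fold, from 1191 to 574, and CASP9 rose 2.06-fold, from 452 to 931. Of 5 measured partners of cIAP and FLIP, TRAF3, which limits non-canonical NF-kappaB signalling, fell 2.57-fold with romidepsin and 4.19-fold with the combination, where FADD also fell, 2.02-fold. MAP3K14 (NIK) was not called with romidepsin or the combination. It was 2.10-fold lower with tamoxifen, a comparison that the rule for names does not use. The calls of CASP8, CASP9, FADD and MAP3K14 each ended under at least 1 other scaling, and that of TRAF3 with romidepsin ended on the median of its probe sets (-0.99).

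**Figure D4:**
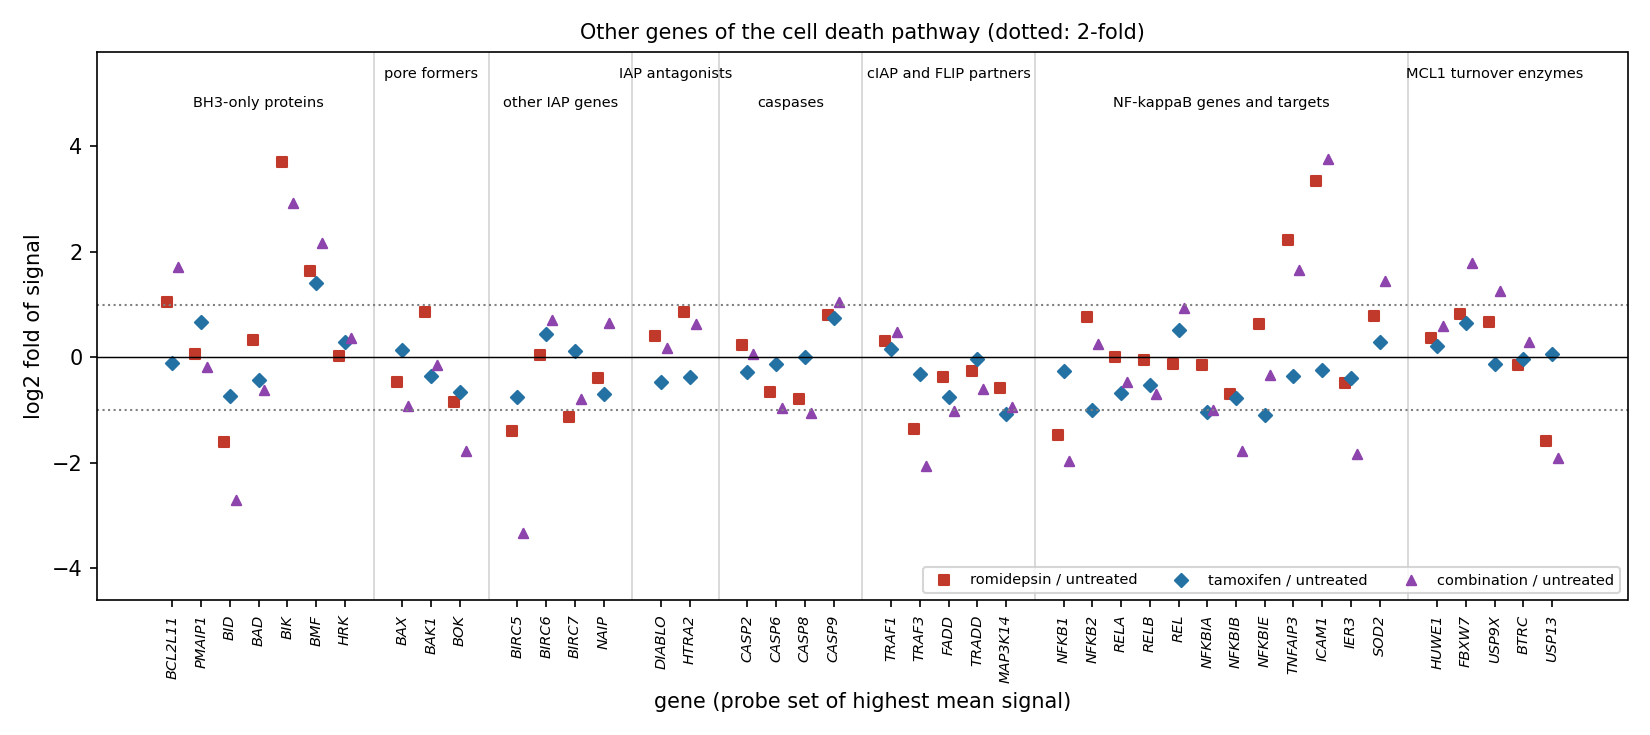
Log2 fold against untreated cells of the measured genes of 8 lists of death pathway genes, 1 point each for romidepsin, tamoxifen and the combination, with dotted lines at 2-fold. BIK, ICAM1 and TNFAIP3 lie highest, BID and BIRC5 lowest; points of BIK, BMF, HRK, TRAF1, of BIRC7 with romidepsin and of NAIP with tamoxifen have the floor on 1 side and are lower bounds.

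Genes of NF-kappaB and its targets were listed because BCL2A1, CFLAR and BIRC3 are known targets. With romidepsin 2 of 12 rose and 1 fell (median log2 fold -0.02), where 14.3% of all measured genes rose and 9.27% fell. With the combination 3 rose and 3 fell (median -0.39), where 19.8% of all rose and 14.4% fell, so these counts are near the shares over all genes. ICAM1, an adhesion molecule, went from 166 to 1680 with romidepsin and 2246 with the combination, 10.1-fold and 13.6-fold higher. TNFAIP3, the feedback inhibitor A20, rose 4.68-fold and 3.14-fold, and SOD2 rose 2.72-fold with the combination, not called with the higher floor (0.21). NFKB1 fell 2.76-fold and 3.91-fold, and IER3 and NFKBIB fell 3.56-fold and 3.42-fold with the combination. ICAM1, TNFAIP3 and IER3 rest on probe sets that may match several transcripts, and without such probe sets NFKBIB was at -0.52. With tamoxifen 0 of 12 rose and 2 fell, where 3.7% of 13051 measured genes rose and 1.07% fell. The 2 were the inhibitors NFKBIA (2.05-fold lower) and NFKBIE (2.12-fold lower). Both were named after their values were seen, and neither was called with spike-in scaling. On the median of its probe sets NFKBIA was at -0.19.

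Enzymes that set the half-life of MCL1 protein were listed beside its flat transcript. USP13, a deubiquitinase, fell 3.01-fold with romidepsin and 3.73-fold with the combination. The ubiquitin ligase subunit FBXW7 and the deubiquitinase USP9X rose with the combination, 3.45-fold and 2.39-fold (the second not with centred arrays), and neither was called with romidepsin. FBXW7 was not called on the median of its probe sets (0.88) or with the higher floor (0.62). HUWE1, and BTRC, named after its values were seen, stayed within 2-fold in both. These 2 rest on probe sets that may match several transcripts, that of HUWE1 with signals from 21618 to 32612. Protein was not measured in these samples.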

How the data were processed

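Total RNA was labelled by a 3′ IVT kit from 100 ng and hybridised to 4 Affymetrix arrays, per the labels' protocols. The authors deposited 1 intensity per probe set, unlogged, and the submitters' processing notes name MAS5 as the tool. Its version and scaling target are not stated there, and scanner files were not used here. The trimmed mean signal was 500.1 on all 4 arrays, so the scaling takes bulk signal as equal. Arrays read hybridisation, not counts, and their number limits the precision.

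Genes were named from the platform annotation. Symbols were checked by Entrez ID against RefSeq (41043 probe sets matched, 0 changed). Each gene was taken from the probe set of highest mean log2 signal. Values under the median of all non-control probe sets were raised to it, and a gene was called at 2-fold. Folds against a gene at the floor are lower bounds. The genes, lists and settings were chosen with earlier results of these data known. The rule for names took all 9 genes, up to 4 genes per list with the largest folds with romidepsin or the combination, and the 3 nearest genes of each gene called at least in 2 of 3 comparisons with untreated cells. Genes outside it are said to be named after their values were seen. Promoter windows came from a RefSeq table, with none for MCL1 and BCL2L2. Columns of other samples numbered 0. The code for calls was tested on simulated data. Changes were put only into genes far above the floor, with noise independent between probe sets and arrays. Dim genes and shifts of whole arrays were thus not covered. Work was done in Python 3.11.15 with numpy 2.4.6, pandas 2.3.3 and matplotlib 3.10.9.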

Additional observations from a re-analysis of the deposited data

How the results depend on the processing

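The 9 other settings were other floors, a pseudocount of 16, 3 scalings, other probe-set rules and a 1.5-fold limit. The number of the 8 genes falling with romidepsin was 3, and 5 with centred arrays or the 1.5-fold limit. For the combination against romidepsin it was 0, and 1 on the median of a gene's probe sets (BCL2L1) or at 1.5-fold (BCL2A1); rises there were 0, and 1 with spike-in scaling or at 1.5-fold (BIRC2). The other counts of genes rising or falling stayed within 1.5 times of the reported ones. Falls of BCL2A1 and BCL2L1 with romidepsin, with or without tamoxifen, and of XIAP in the combination against tamoxifen were called under all 8 settings that keep the 2-fold limit, and those of CFLAR under 7 of 8. The exception left out _x_at and _s_at probe sets, and CFLAR was then at -0.21 in both treatments holding romidepsin, against untreated cells, and at -0.60 in the combination against tamoxifen, from a probe set near the floor. With the floor at the 75th percentile BCL2A1 was at -1.55 in both, a bound. Not every setting could change each fold. BCL2A1 has 1 probe set, so the other probe-set rules returned its reported values. The brightest probe sets of BCL2L1 and XIAP carry neither suffix, so leaving out such probe sets changed nothing for them. Of 351 log2 folds under these settings 311 moved by less than the technical SD and 40 by more, and none of the called ones changed sign. The 1.5-fold limit changes no log2 fold, so its entries could not move, and the 311 include them. Of 720 counts of the pathway lists 117 moved by more than 1.5 times. Of the 34 calls of list genes against untreated cells 25 held under all 3 scalings and 10 under all 8 settings that keep the 2-fold limit. Calls of genes no longer measured were counted as not held. Over all genes and settings, rises and falls numbered 800 to 3536 and 832 to 2629 with romidepsin (1953 and 1263 reported), 195 to 1914 and 27 to 1151 with tamoxifen (483 and 140), and 1423 to 4259 and 1342 to 3389 with the combination (2727 and 1984). They were 266 to 1858 and 89 to 1569 for the combination against romidepsin (559 and 312), and 971 to 3649 and 1043 to 3039 against tamoxifen (2051 and 1644). No paired analysis was possible because each condition has 1 array.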

Other observations

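A probe set that the annotation gives to BCL2L2, PABPN1 and their read-through transcript together was not counted for any gene. It read 8505 in untreated cells, 4994 with romidepsin, 6134 with tamoxifen and 3479 with the combination, 2.44-fold lower than untreated in the last. Its signal was lowest on the combination array, as for 24.9% of 27196 measured probe sets with 1 gene, and which of its transcripts it reads was not tested.

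Of 6 epithelial markers 5 were measured. EPCAM rose at least 5.96-fold with romidepsin and at least 7.15-fold with the combination, each against untreated cells. The epithelial cadherin CDH1 rose 4.61-fold and 3.93-fold. With tamoxifen alone CDH1 rose 2.03-fold, just past the limit, as the only 1 of the 5. KRT7, KRT8 and KRT18 had log2 folds of -0.60, 0.23 and -0.37 with romidepsin, and fell 3.86-fold, 2.20-fold and 2.24-fold with the combination. Of 3 mesenchymal markers fibronectin (FN1) rose from below the floor, at least 16.5-fold with romidepsin and at least 17.5-fold with the combination. Vimentin (VIM) had log2 folds of -0.34 and -0.78 and the cadherin CDH2 of 0.31 and 0.04, all under the 2-fold limit.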
